A study of Mus musculus with 7 samples.

Results

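Chromatin-associated RNA of 8 X-linked genes that encode chromatin and transcription regulators, Suv39h1, Ogt, Hcfc1, Phf6, Phf8, Hdac8, Atrx and Smc1a, was followed in female mouse embryonic stem cells (mESCs) carrying an inducible Xist gene. The members were chosen by name and are 8 of the 908 X-linked genes, and of the 22556 genes, in the count files. The libraries (ChrRNA-seq, RNA sequenced from the chromatin fraction) came from undifferentiated cells that had received 1 µg/mL doxycycline for 10 days. The cells are F1 hybrids with a 129/Sv X chromosome (Mus musculus domesticus, Dom) and a CAST/EiJ one (Cast). A TetOn promoter stands in place of the Xist promoter on the Dom X in iXist-ChrX-Dom (4 libraries) and on the Cast X in iXist-ChrX-Cast (3 libraries). Xi denotes the chromosome with the inducible Xist and Xa its homolog, so Xi is Dom in the former line and Cast in the latter. Each line is a single clone, and both were grown on feeder fibroblasts that were removed by pre-plating. Uninduced cells were not analysed here, and the values therefore describe the induced state and not the effect of induction.

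In female mammals Xist RNA coats the X chromosome it is transcribed from and silences most of its genes, while some genes, Kdm6a and Kdm5c among them in mouse, remain expressed from the silenced chromosome. SUV39H1 methylates lysine 9 of histone H3, and ATRX is a chromatin remodeller that deposits the histone variant H3.3 together with DAXX. OGT adds O-GlcNAc to nuclear proteins and cleaves HCF-1, the product of Hcfc1. SMC1A is a subunit of the cohesin ring and HDAC8 deacetylates SMC3 of the same ring, whereas PHF8 removes methyl groups from histones and PHF6 is a nuclear protein that binds the NuRD complex. All of these genes are on the X chromosome, so their own allelic output is open to the process that Xist starts.

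The labels and the files left a pair of points to settle. The description fields of iXist-ChrX-Dom replicates 3 and 4 give d1, whereas their titles and treatment fields give 10 days, which was followed. For replicates 1 and 2 of iXist-ChrX-Cast the clone named in the files is another than in the labels, which were followed. Libraries held 14877384 to 24309806 counted fragments, of which 44.2% to 46.4% were assigned to an allele and 4.21% to 4.76% came from X-linked genes. Markers of pluripotent cells summed to 1339 to 1655 CPM (counts scaled to a common library size) in iXist-ChrX-Dom and 1533 to 1661 CPM in iXist-ChrX-Cast, although Sox2, one of the 8 markers, was listed at 0 in every library. The 8 fibroblast markers summed to 23.4 to 36.4 and 26.0 to 33.3 CPM, and the 6 neural markers to 22.9 to 32.7 and 19.2 to 22.9 CPM, with Sox1 at 0. The study calls the 4 iXist-ChrX-Dom libraries replicate experiments and the 3 of iXist-ChrX-Cast replicates. The labels do not say whether these were separate cultures, and p-values measure the spread between these libraries.

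The members lie along the whole X chromosome (mm10, starts as the count files give them). Centromeric of Xist are Suv39h1 (chrX:8061170-8074760, minus strand), Phf6 (chrX:52912213-52956961, plus), Hcfc1 (chrX:73942791-73966357, minus), Ogt (chrX:101640050-101684351, plus) and Hdac8 (chrX:102284639-102505148, minus). Telomeric of Xist are Atrx (chrX:105797614-105929372, minus), Phf8 (chrX:151520671-151633857, plus) and Smc1a (chrX:152016427-152061973, plus). Hdac8, Ogt and Atrx are nearest to Xist, with starts 1.18, 1.82 and 2.34 Mb from its start, and Suv39h1 is farthest at 95.4 Mb. All are protein-coding in GENCODE. An antisense gene, Gm14820, covers 99.0% of Suv39h1, and Gm14858 covers 36.7% of Hdac8 on the opposite strand, and fragments were counted by strand.

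The windows of 250 bases before the annotated start are shown for Suv39h1, Ogt, Hcfc1 and Phf8, the members with the highest Xi shares in iXist-ChrX-Cast (RefSeq, GRCm38.p6, 5′ to 3′ on the strand of the gene). Capitals mark AAGATGGCGG, the longest run of letters that the windows of at least 3 members share on the strand of the gene (10 bases). It resembles the motif of the transcription factor YY1. Since it was found in the windows of the members, its presence there is no finding. It was then counted on both strands over all windows, those of the members included.
Suv39h1, chrX:8074761-8075010, minus strand: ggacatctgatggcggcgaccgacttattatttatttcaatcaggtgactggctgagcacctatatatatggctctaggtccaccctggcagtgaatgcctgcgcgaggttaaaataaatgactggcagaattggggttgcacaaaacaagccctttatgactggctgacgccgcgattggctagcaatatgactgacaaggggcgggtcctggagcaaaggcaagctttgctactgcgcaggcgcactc
Ogt, chrX:101639801-101640050, plus strand: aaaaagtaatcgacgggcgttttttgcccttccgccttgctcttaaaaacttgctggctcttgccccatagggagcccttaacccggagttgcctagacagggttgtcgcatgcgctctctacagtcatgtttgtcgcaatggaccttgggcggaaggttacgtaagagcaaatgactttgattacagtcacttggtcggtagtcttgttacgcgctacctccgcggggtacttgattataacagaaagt
Hcfc1, chrX:73966358-73966607, minus strand: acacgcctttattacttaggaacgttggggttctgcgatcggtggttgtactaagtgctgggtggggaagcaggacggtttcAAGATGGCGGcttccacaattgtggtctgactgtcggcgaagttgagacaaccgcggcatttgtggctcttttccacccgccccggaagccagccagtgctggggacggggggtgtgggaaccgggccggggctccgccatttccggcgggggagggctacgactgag
Phf8, chrX:151520422-151520671, plus strand: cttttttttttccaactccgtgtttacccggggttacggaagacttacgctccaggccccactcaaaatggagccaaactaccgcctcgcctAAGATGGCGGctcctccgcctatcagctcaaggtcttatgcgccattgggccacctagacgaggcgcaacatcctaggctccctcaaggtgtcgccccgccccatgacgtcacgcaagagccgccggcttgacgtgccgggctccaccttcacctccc
The motif was in the windows of Hcfc1 and Phf8, in neither of those of Ogt, and not in those of Hdac8, Atrx and Smc1a. For Suv39h1 it was absent from the window shown and present before a second annotated start. It was in 99 of 32851 mouse promoter windows of this length (0.301%) and in 8 of 1223 X-linked ones (0.654%). Both counts include the windows of Suv39h1, Hcfc1 and Phf8 in which it was found, which raises the X-linked share. The windows shown held 11 (Suv39h1), 15 (Ogt), 19 (Hcfc1) and 19 (Phf8) CpG dinucleotides against a median of 6 over all windows. Those of Hdac8 and Atrx each held 6, that of Smc1a held 16, and Phf6 had no entry. These are descriptions of the letters and say nothing of a bound factor.

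Allelic ratios, the fragments of Xi over those of Xi and Xa together, were used to ask how far each gene was expressed from Xi. All 8 members were in the table of 399 genes of iXist-ChrX-Cast. The table of 246 genes of iXist-ChrX-Dom held 5 of them, because that line is homozygous for Cast telomeric of Xist. Suv39h1 had the highest ratio of the members in both lines, Ogt and Hcfc1 came next, and Phf6 had the lowest. Because these are bulk libraries, a lower Xi share in every cell and fewer cells that express Xi cannot be told apart, and neither can fewer cells of a type and less RNA per cell.

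**Figure D1:**
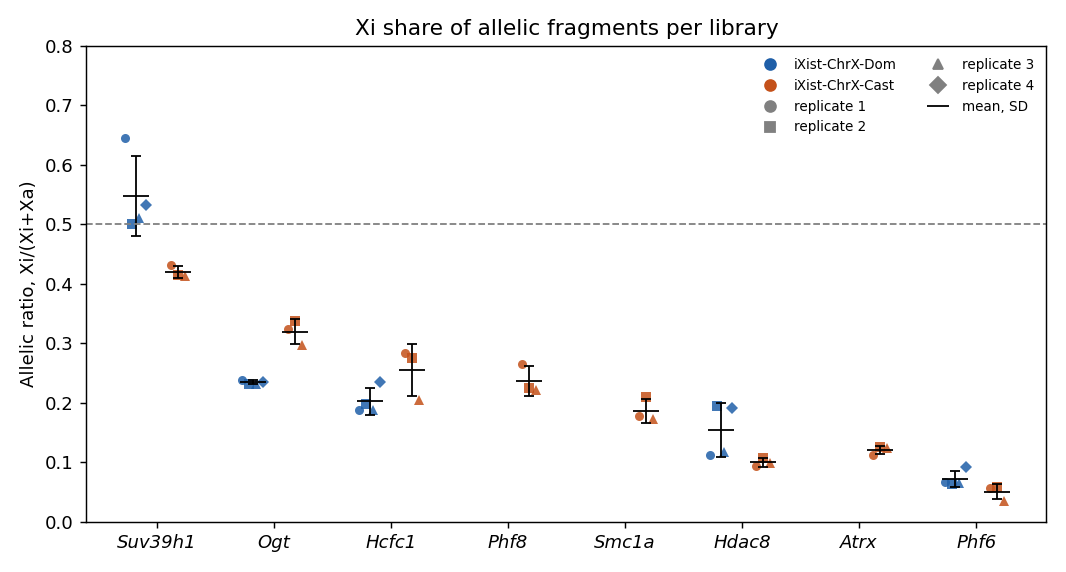
Allelic ratio (vertical axis, Xi fragments over Xi and Xa fragments, no unit) of each member (horizontal axis) in every library of iXist-ChrX-Dom (blue, n = 4) and iXist-ChrX-Cast (orange, n = 3). Symbols mark the replicate number, black bars the mean and SD, and the dashed line a ratio of 0.5. Suv39h1 is at or above 0.5 in each iXist-ChrX-Dom library and Phf6 is below 0.1 in each of the 7 libraries.

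Suv39h1, the H3K9 methyltransferase gene, had ratios of 0.645, 0.500, 0.511 and 0.533 in iXist-ChrX-Dom replicates 1 to 4 (0.547 ± 0.0668, SD, n = 4). In iXist-ChrX-Cast replicates 1 to 3 it had 0.431, 0.415 and 0.413 (0.420 ± 0.00978, n = 3). The lines did not overlap, and replicate 1 of iXist-ChrX-Dom stood highest. Each ratio rested on 107 to 170 allelic fragments, 17.9% to 23.1% of the fragments of the gene, and the 95% Wilson interval of that highest ratio ran from 0.553 to 0.729. Such intervals cover counting error only, as fragments carried no molecular identifiers. In the tables Suv39h1 ranked 2 of 246 and 11 of 399 from the highest, where the median gene had 0.148 and 0.122.

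Ogt, which encodes the O-GlcNAc transferase, had ratios of 0.239, 0.232, 0.231 and 0.235 in iXist-ChrX-Dom replicates 1 to 4 (0.234 ± 0.00325, n = 4). In iXist-ChrX-Cast they were 0.324, 0.337 and 0.297 (0.320 ± 0.0205, n = 3). All 4 iXist-ChrX-Dom libraries were below all 3 of iXist-ChrX-Cast, on 1273 to 1969 allelic fragments each. Its rank was 55 of 246 and 23 of 399.

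Hcfc1, which encodes the transcriptional coregulator HCF-1, had 0.187, 0.198, 0.188 and 0.236 in iXist-ChrX-Dom (0.202 ± 0.0229, n = 4) and 0.284, 0.276 and 0.204 in iXist-ChrX-Cast (0.255 ± 0.0437, n = 3). Here the lines overlapped, since replicate 3 of iXist-ChrX-Cast fell among the iXist-ChrX-Dom libraries. Hcfc1 ranked 77 of 246 and 54 of 399. In iXist-ChrX-Dom, Ogt and Hcfc1 overlapped in their ratios, whereas in iXist-ChrX-Cast all Ogt ratios were above those of Hcfc1.

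Hdac8, the gene of the SMC3 deacetylase, had 0.112, 0.194, 0.117 and 0.192 in iXist-ChrX-Dom (0.154 ± 0.0452, n = 4). Replicates 1 and 3 were low and replicates 2 and 4 high, and the Wilson intervals of the former (0.0876 to 0.143 and 0.0921 to 0.147) were apart from those of the latter (0.160 to 0.233 and 0.162 to 0.226). In iXist-ChrX-Cast the values were 0.0932, 0.107 and 0.0983 (0.0996 ± 0.00712, n = 3), close to each other and below every iXist-ChrX-Dom library. Hdac8 ranked 119 of 246 and 232 of 399, in the middle of each table.

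Phf6, the plant homeodomain finger gene, was the member most fully biased to Xa, with ratios of 0.0663, 0.0641, 0.0653 and 0.0923 in iXist-ChrX-Dom (0.0720 ± 0.0136, n = 4). In iXist-ChrX-Cast it had 0.0571, 0.0579 and 0.0355 (0.0502 ± 0.0127, n = 3). Replicate 4 stood above the other three iXist-ChrX-Dom libraries, and the lines did not overlap. That replicate also had the highest median ratio over all table genes of its line, 0.181 against 0.128 to 0.146, and replicate 3 of iXist-ChrX-Cast the lowest, 0.111 against 0.125 and 0.135. The part of these library medians in the Phf6 values was not tested. Phf6 ranked 195 of 246 and 339 of 399.

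The telomeric members could be read in iXist-ChrX-Cast alone. Phf8, a histone demethylase gene, had 0.266, 0.225 and 0.221 (0.237 ± 0.0250, n = 3) and overlapped Hcfc1. Smc1a, a gene of the cohesin ring, had 0.178, 0.210 and 0.172 (0.187 ± 0.0201, n = 3), all below the Phf8 values. Atrx, the remodeller gene and by far the deepest counted member with 7413 to 10116 allelic fragments, had 0.113, 0.125 and 0.125 (0.121 ± 0.00713, n = 3), which put it at the middle of the table (rank 203 of 399, with Phf8 at 65 and Smc1a at 111). The whole order in this line was Suv39h1, Ogt, Hcfc1, Phf8, Smc1a, Atrx, Hdac8, Phf6, and only Hcfc1 and Phf8 overlapped among neighbours in it.

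In iXist-ChrX-Dom the same 3 genes give a check of the assignment of alleles, since the line has no Dom copy of them. Fragments from feeder fibroblasts that were left could also be read as Dom, and their part in this check was not tested. Of their allelic fragments, 1.04% to 1.76% of Atrx, 3.03% to 3.86% of Phf8 and 2.12% to 4.61% of Smc1a were still assigned to Dom. Over all 159 telomeric genes of the iXist-ChrX-Cast table the share was 3.20% to 4.19%. The lowest ratio of a member read as a Dom share, that of Phf6 in iXist-ChrX-Dom (0.0641 to 0.0923), was above this level in each library. No such check exists for fragments assigned to Cast, so the level below which the Phf6 ratios of iXist-ChrX-Cast could not be told from misassignment is not known.

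**Figure D2:**
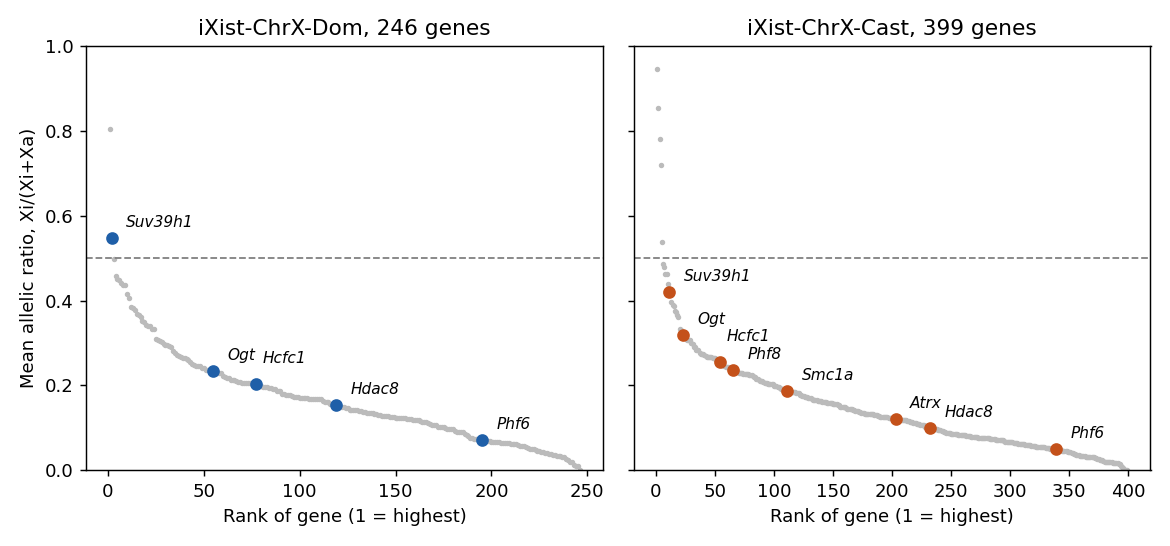
Mean allelic ratio (vertical axis, no unit) of every gene in the deposited table of each line against its rank (horizontal axis, 1 = highest). Grey points are genes, coloured points the members, and the dashed line a ratio of 0.5. Suv39h1 lies at the upper end of both curves, at rank 2 of 246 and 11 of 399, and Phf6 toward the lower end, at 195 and 339.

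Whether a gene was expressed less from Xi than from Xa was tested against a ratio of 0.5 within each line, with limma on the log-odds of the ratio (log2 scale) over all genes of the table. In iXist-ChrX-Dom 4 of 5 members were below 0.5 at an adjusted p under 0.05, as were 94.7% of the 246 genes. The exception was Suv39h1, with a log-odds of 0.27 (95% interval -0.20 to 0.75, adjusted p = 0.199), and 0.083 without replicate 1 (adjusted p = 0.490). In iXist-ChrX-Cast all 8 members were below 0.5, as were 97.2% of the 399 genes, and Suv39h1 was nearest to it with a log-odds of -0.46 (SE 0.09, adjusted p = 0.0130). That call on Suv39h1 was lost without replicate 1 (adjusted p = 0.0625) and without replicate 2 (0.0651). It was also lost after correction for the autosomal Cast share (-0.27, adjusted p = 0.0886). The correction uses each library's own autosomal share, the median over genes of the Cast share of a gene's allelic fragments. Only genes with at least 50 allelic fragments were used, on a balanced set of autosomes from which some autosomes were left out. This median was 46.4% to 47.1%, below an equal share.

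Suv39h1 stood above its neighbours on the chromosome. The nearest table genes on both sides, Timm17b, Hdac6, Wdr13 and Rbm3, start 62.1 to 161.8 kb away. In iXist-ChrX-Dom their mean ratios were 0.240 ± 0.124, 0.170 ± 0.0237, 0.310 ± 0.0594 and 0.261 ± 0.0447, and in iXist-ChrX-Cast 0.273 ± 0.0432, 0.324 ± 0.0155, 0.266 ± 0.0509 and 0.307 ± 0.00817. All libraries of Suv39h1 were above all libraries of each of these 4 genes, in both lines. These are descriptions, as the comparison of neighbours was not tested, and Timm17b had as few as 19 allelic fragments in a library.

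Ogt had a different setting in each line. Its nearest neighbour, Taf1, a gene of the general transcription factor TFIID whose start is 107.3 kb away, had 0.230 ± 0.0146 in iXist-ChrX-Dom, overlapping Ogt. In iXist-ChrX-Cast Taf1 had 0.539 ± 0.0401, above all Ogt libraries. On the other side, Nhsl2 had 0.0518 ± 0.0175 and 0.0889 ± 0.0556, below Ogt in both lines. The next gene on that side, Pin4, had 0.458 ± 0.0784 in iXist-ChrX-Dom, above all Ogt libraries, and 0.267 ± 0.0579 in iXist-ChrX-Cast, overlapping Ogt. Hdac8, further along the same chromosome segment, was flanked by Rps4x (0.195 ± 0.0234 and 0.199 ± 0.00916) and Phka1 (0.103 ± 0.0348 and 0.0448 ± 0.00930). It overlapped both in iXist-ChrX-Dom and lay between them, with no overlap, in iXist-ChrX-Cast, where the next gene beyond Phka1, 4930519F16Rik, had 0.301 ± 0.0398.

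Hcfc1 lay among genes of like ratio. It overlapped Renbp (0.216 ± 0.0217 and 0.215 ± 0.0325) and Naa10 (0.196 ± 0.0148 and 0.195 ± 0.0203) in both lines, and was above Irak1 (0.140 ± 0.0230 and 0.138 ± 0.0187) in both. Phf6 was below Hprt, which starts 75.9 kb away, in iXist-ChrX-Dom (0.167 ± 0.0178 for Hprt) and overlapped it in iXist-ChrX-Cast (0.0755 ± 0.0207). It was above Gpc3 in iXist-ChrX-Dom (0.0358 ± 0.00698) and overlapped it in iXist-ChrX-Cast (0.0469 ± 0.00529).

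Of the telomeric members, Phf8 overlapped Huwe1, a ubiquitin ligase gene (0.237 ± 0.0168), and lay above Fam120c (0.129 ± 0.00110), in iXist-ChrX-Cast. Smc1a was above Ribc1 (0.0787 ± 0.0691) and Iqsec2 (0.0922 ± 0.0166), each on as few as 26 and 29 allelic fragments, and below Kdm5c, a histone demethylase gene known to escape silencing (0.283 ± 0.0136). Atrx lay above Magt1 (0.0733 ± 0.00730) and below Cox7b (0.154 ± 0.0159) on the far side from Xist, and below Pbdc1 (0.220 ± 0.00985) and 5530601H04Rik (0.397 ± 0.0191) on the near side.

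**Figure D3:**
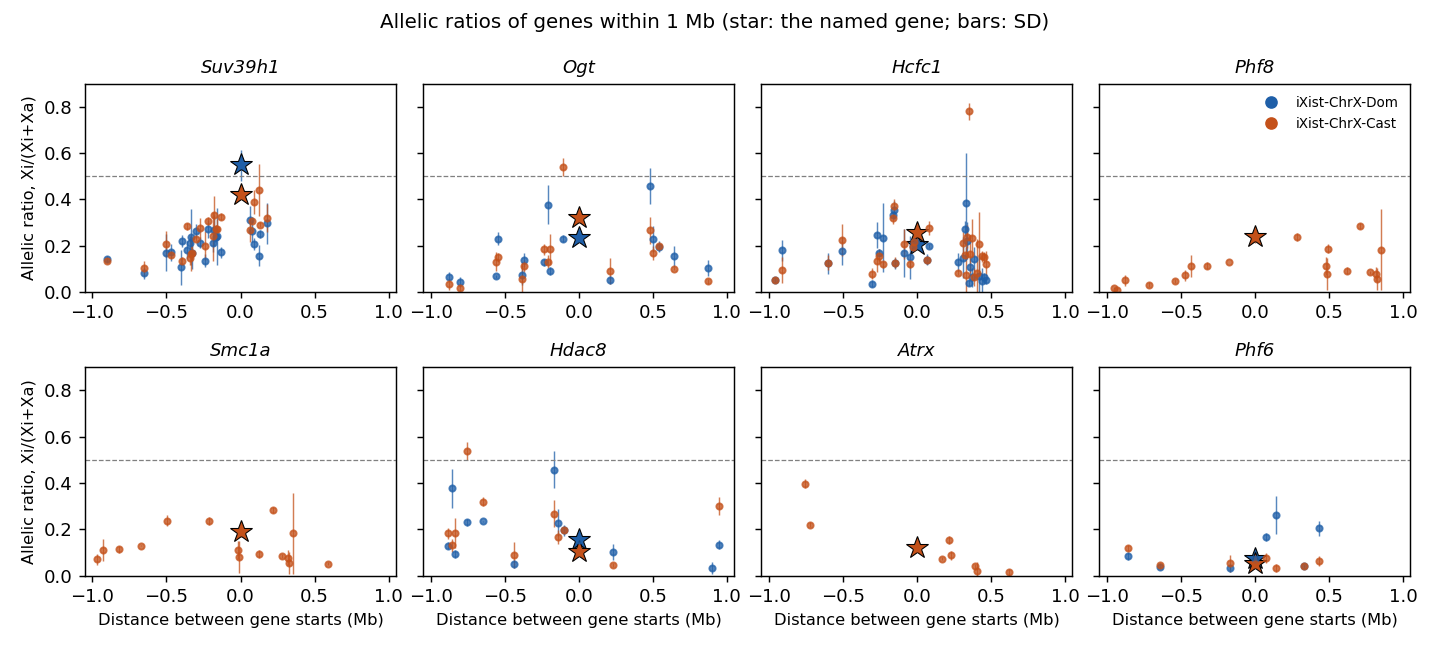
Mean allelic ratio (vertical axis, no unit, bars = SD) of table genes whose start is within 1 Mb of that of each member, against the distance between the starts (horizontal axis, Mb). Blue is iXist-ChrX-Dom (n = 4), orange iXist-ChrX-Cast (n = 3), stars are the member itself, and Phf8, Smc1a and Atrx have values in iXist-ChrX-Cast only. Suv39h1 lies above its nearest genes in both lines, and Hcfc1 lies among its own.

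Over the 7 libraries, the genes whose log-odds were most like those of a member were found by root mean square distance on the log2 scale. For Suv39h1 these were Kdm6a, a histone demethylase gene known to escape (distance 0.55, mean ratios 0.437 and 0.389), and Ssr4 (0.93, ratios 0.352 and 0.373). For Ogt they were Porcn (0.19) and Otud5 (0.27), for Hcfc1 Yipf6 (0.17), and for Phf6 Rbmx (0.26) and Fhl1 (0.32). For Hdac8 they were Stag2, which encodes a cohesin subunit (0.31, ratios 0.138 and 0.0978), and Med12 (0.38). The median distance of all table genes was 2.74 from Suv39h1 and 1.11 from Hdac8.

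The reciprocal lines allowed the ratio to be compared between a Dom Xi and a Cast Xi. Of the 5 members in both tables, 4 did not overlap between the lines, against 44.7% of the 235 shared genes: Suv39h1, Phf6 and Hdac8 were higher and Ogt lower in iXist-ChrX-Dom. By limma on the log-odds (iXist-ChrX-Dom minus iXist-ChrX-Cast) 1 of the 5 was called, against 33.2% of the 235 genes. This was Ogt, with a difference of -0.60 (SE 0.14, adjusted p = 0.0182), lower in 4 of 4 libraries. The call was lost without iXist-ChrX-Dom replicate 3 (adjusted p = 0.0554), without iXist-ChrX-Cast replicate 1 (0.0692) or replicate 2 (0.0689), with replicates 1 and 2 of both lines alone (0.0543), without iXist-ChrX-Dom replicates 3 and 4 together (0.0710) and with the replicate number as a block (0.120), with estimates between -0.54 and -0.66.

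Suv39h1 was just outside the threshold with a difference of 0.73 (SE 0.24, adjusted p = 0.0505). Without iXist-ChrX-Dom replicate 1 the difference was 0.54 and was called (adjusted p = 0.0426), and edgeR on the allelic counts called it too (0.72, adjusted p = 0.0292). So did limma with a log-odds offset of 0.05 (adjusted p = 0.0391) and on untransformed ratios (0.0275), but not with an offset of 0.001 (0.0582). Suv39h1 was not called with any other library left out (adjusted p = 0.0591 to 0.125), with the replicate block (0.122) or with replicates 1 and 2 of both lines alone (0.147). Hdac8 had 0.63 (SE 0.28, adjusted p = 0.121, called by edgeR on allelic counts with adjusted p = 0.0319), Phf6 0.49 (SE 0.23, adjusted p = 0.132) and Hcfc1 -0.41 (SE 0.21, adjusted p = 0.167). The difference of Phf6 was 0.29 without iXist-ChrX-Cast replicate 3 and 0.17 with replicates 1 and 2 of both lines alone.

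A shortage of Cast fragments raises the ratio where Xi is Dom and lowers it where Xi is Cast. With the log-odds corrected by the autosomal Cast share of each library, the difference of Suv39h1 was 0.35 (adjusted p = 0.245), that of Hdac8 0.25 (adjusted p = 0.476) and that of Phf6 0.11 (adjusted p = 0.714). The difference of Ogt became -0.98 (adjusted p = 0.00286) and that of Hcfc1 -0.79 (adjusted p = 0.0243), so both were called. The direction of each of the 5 members was the same with and without the correction.

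The same allele was then compared as Xa in a line and as Xi in the other, so that no value of the Cast allele was set against one of the Dom allele, although the clones then differ. For the Cast allele of Suv39h1, levels were 1.71, 3.45, 3.52 and 2.55 CPM on Xa (iXist-ChrX-Dom) and 3.52, 2.75 and 2.86 CPM on Xi (iXist-ChrX-Cast). The groups overlapped. For the Dom allele, levels were 4.64, 3.87 and 4.06 CPM on Xa (iXist-ChrX-Cast) and 3.11, 3.45, 3.68 and 2.91 CPM on Xi (iXist-ChrX-Dom), and these did not overlap.

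By edgeR, Suv39h1 on Xa over Xi had a log2 ratio of -0.11 for the Cast allele (95% interval -0.67 to 0.45, adjusted p = 0.877) and 0.34 for the Dom allele (-0.05 to 0.74, adjusted p = 0.409). The intervals leave room for up to 1.37-fold and 1.66-fold more on Xa. The Cast value rested on single libraries for its sign, being 0.073 without iXist-ChrX-Dom replicate 1 and 0.0037 without iXist-ChrX-Cast replicate 1.

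The other 4 members of both tables were higher on Xa with either allele. This was so for 95.7% of 230 genes of both tables for the Cast allele and 96.9% of 226 for the Dom allele, with median log2 ratios of 2.53 and 2.62. Ogt was 2.21-fold (adjusted p = 4.88e-05) and 3.17-fold (adjusted p = 4.55e-07) higher on Xa, below those medians. Hcfc1 was 3.25-fold and 3.56-fold higher. Hdac8 was 7.91-fold and 6.36-fold higher, near the medians, and Phf6 18.5-fold and 13.1-fold higher.

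The Cast allele of Ogt had 56.7, 61.3, 74.6 and 71.7 CPM on Xa and 29.1, 31.3 and 29.3 CPM on Xi, and the Dom allele 60.5, 61.6 and 69.3 CPM on Xa and 17.8, 18.5, 22.5 and 22.0 CPM on Xi. On Xa the lines overlapped, and on Xi all iXist-ChrX-Cast libraries were above those of iXist-ChrX-Dom. Phf6 on Xi was at 0.902 to 1.97 CPM for the Cast allele and 1.97 to 2.50 CPM for the Dom allele, from 18 to 57 fragments per library.

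**Figure D4:**
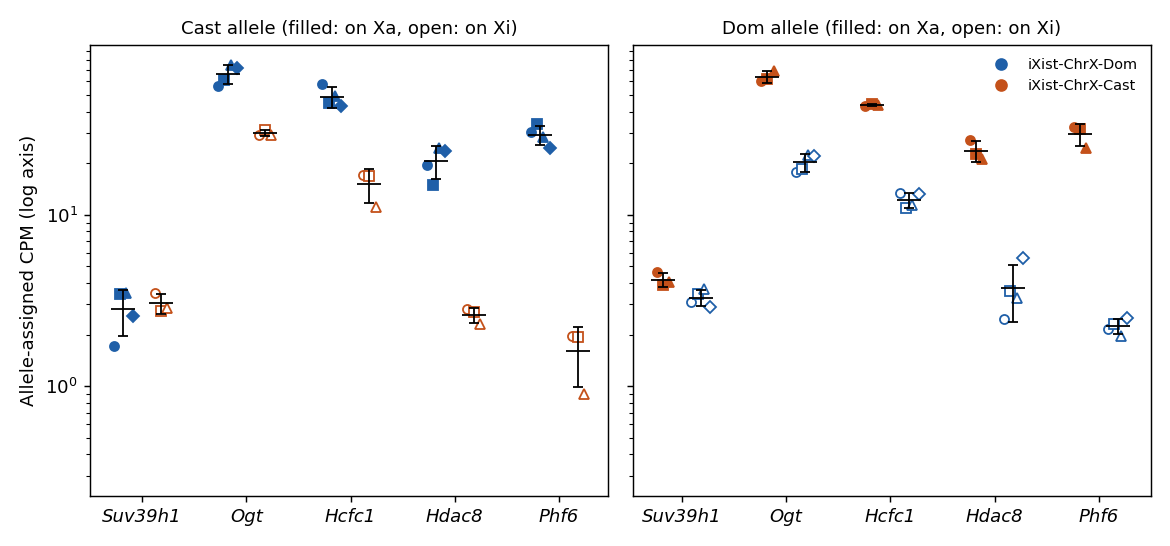
Allele-assigned CPM (vertical, log axis) of the 5 members of both tables for the Cast allele (left) and the Dom allele (right). Filled symbols are the allele on Xa, open symbols the same allele on Xi, blue iXist-ChrX-Dom (n = 4), orange iXist-ChrX-Cast (n = 3), black bars the mean and SD. Filled and open symbols overlap for the Cast allele of Suv39h1 and are apart for the other members.

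Total fragments, both alleles together, were compared next for the amount of chromatin RNA of each member. Per kb of gene span the order in both lines was Atrx, Hcfc1, Ogt, Smc1a, Suv39h1, Phf6, Phf8 and Hdac8. In iXist-ChrX-Dom Atrx had 10.3 ± 0.767 CPM per kb, Hcfc1 10.2 ± 1.24 and Ogt 8.13 ± 0.890 (n = 4), with Atrx and Hcfc1, and Hcfc1 and Ogt, overlapping. Hdac8 had 0.282 ± 0.0520 CPM per kb. In iXist-ChrX-Cast Atrx had 12.7 ± 0.550 CPM per kb, above Hcfc1 (10.1 ± 0.879), which overlapped Ogt (8.85 ± 0.310), and Hdac8 had 0.310 ± 0.0471 (n = 3).

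**Figure D5:**
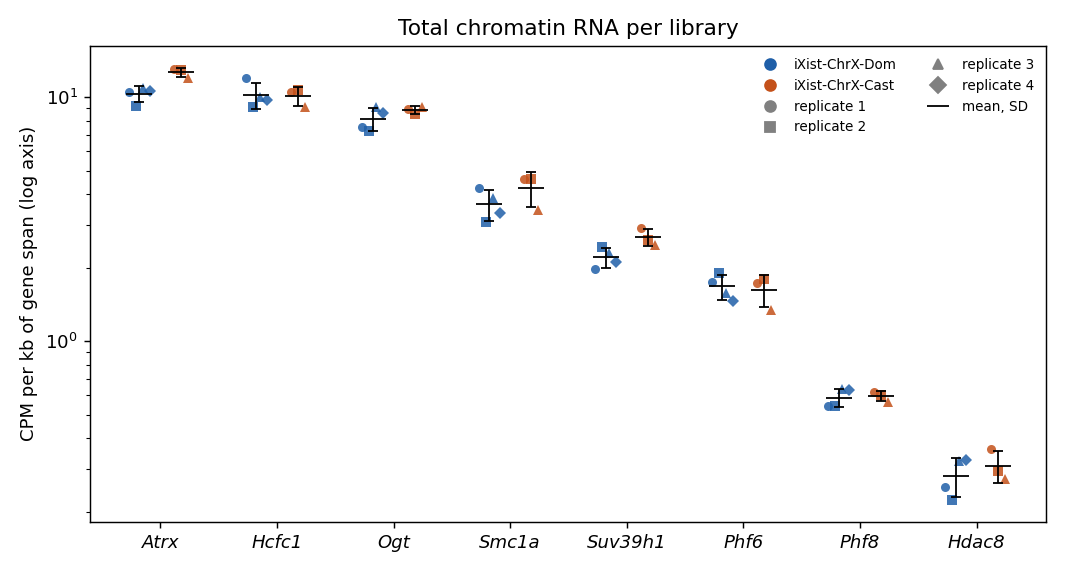
Total chromatin RNA (vertical, log axis, CPM per kb of gene span) of each member (horizontal axis) in every library of iXist-ChrX-Dom (blue, n = 4) and iXist-ChrX-Cast (orange, n = 3). Symbols mark the replicate number and black bars the mean and SD. Suv39h1 and Atrx do not overlap between the lines, and Atrx, Hcfc1 and Ogt lie highest.

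Between the lines, edgeR called 0 of the 8 members in total counts, against 2.92% of 15186 genes and 8.12% of 542 X-linked genes. At an unadjusted p under 0.05 it gave 2 members, Atrx and Suv39h1, against 2638 of the 15186 genes. DESeq2, which called 7.23% of genes, called 0 members. Atrx and Suv39h1 were also the 2 of 8 members whose CPM did not overlap, against 16% of all genes. The median log2 difference was -0.13 over the members and -0.12 over the X-linked genes, beside -0.00 over all genes tested. Of 7 pluripotency markers tested edgeR called 0. At an unadjusted p under 0.05 it gave Klf4 and Tfcp2l1, with log2 differences of -0.52 and -0.50, and in the opposite direction Zfp42, with 0.37, and Klf4 and Tfcp2l1 were the 2 called by DESeq2 and by edgeR with the replicate number as a block (adjusted p = 0.0040 and 0.00966). Of 3 neural markers edgeR called 0, gave Pax6 (1.18) and Neurod1 (-0.71) at an unadjusted p under 0.05, and called Pax6 with the block (adjusted p = 2.13e-06), as did DESeq2. The part of these markers in the totals of the members was not tested. Tfcp2l1 lies on chromosome 1 and Zfp42 on chromosome 8, which were left out of the balanced set of autosomes. The part of the chromosome in their differences was not tested.

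Atrx had 1389, 1208, 1435 and 1395 CPM in iXist-ChrX-Dom and 1715, 1707 and 1586 CPM in iXist-ChrX-Cast. All 4 were below all 3, with a log2 difference of -0.30 (SE 0.10, unadjusted p = 0.0155, adjusted p = 0.162). Replicates 1 and 2 of the lines follow another file naming scheme than replicates 3 and 4, and with this set as a covariate, a fit that called 15.8% of all genes, Atrx was called (-0.31, adjusted p = 0.0441). It was called as well within replicates 1 and 2, where 11% of genes were (-0.39, adjusted p = 0.0296), as was Hdac8 (-0.46, adjusted p = 0.0372, against -0.14 over all libraries).

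Suv39h1 had 27.0, 33.1, 31.2 and 28.6 CPM in iXist-ChrX-Dom and 39.6, 35.4 and 33.8 CPM in iXist-ChrX-Cast. The highest iXist-ChrX-Dom library was just below the lowest of iXist-ChrX-Cast, and the log2 difference was -0.28 (SE 0.12, unadjusted p = 0.0440, adjusted p = 0.272). Smc1a had -0.22 (SE 0.14, adjusted p = 0.474), Ogt -0.12 (SE 0.11, adjusted p = 0.618) and Hdac8 -0.14 (SE 0.16, adjusted p = 0.725). Phf8 had -0.02, Hcfc1 0.02 and Phf6 0.05, each with an SE of 0.10 to 0.13. The 95% interval of the difference of Ogt in total was -0.36 to 0.12.

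The partners of the members were read from lists of genes. The fit with the replicate number as a block, which called 11.8% of genes, is given where it changed a call. Over all 15186 genes tested, 2638 had an unadjusted p under 0.05 by edgeR. Of 10 genes of H3K9 methylation and HP1 edgeR called 0, also at an unadjusted p under 0.05, and DESeq2 0, and Suv39h2, the paralog of Suv39h1, had a log2 difference of -0.28 (SE 0.14, adjusted p = 0.342), with 54.4 ± 6.75 and 66.2 ± 11.1 CPM. Of 7 genes of ATRX, DAXX and H3.3 deposition edgeR called 0 (1 at an unadjusted p under 0.05, the H3.3 gene H3f3a) and DESeq2 0. Of 16 genes of O-GlcNAc cycling and HCF-1 partners edgeR called 0, while Sin3a and Foxk2 were the 2 at an unadjusted p under 0.05 and the 2 called by DESeq2. Mgea5, the O-GlcNAcase gene that opposes Ogt, had -0.02 (SE 0.11, adjusted p = 0.965), Hcfc2, the paralog of Hcfc1, had 0.03, and Sin3a, a corepressor scaffold, was called with the block (-0.36, adjusted p = 0.0330).

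Of 11 NuRD genes Gatad2a, a subunit, was higher in iXist-ChrX-Dom by 0.50 (SE 0.10, adjusted p = 0.0295), and the block added Hdac2, lower (-0.32, adjusted p = 0.0469). Of 9 histone demethylase genes edgeR called 0, Kdm3a and Kdm7a were the 2 at an unadjusted p under 0.05 and the 2 called by DESeq2, and Phf2, a relative of Phf8, had 0.20 (SE 0.15, adjusted p = 0.562), while Kdm7a, another relative, was lower with the block (-0.43, adjusted p = 0.00966). Of 12 cohesin genes Smc1b, the meiotic paralog of Smc1a, was lower in iXist-ChrX-Dom by a log2 difference of -1.20 (SE 0.18, adjusted p = 0.0151), at 20.9 ± 5.34 against 47.8 ± 4.05 CPM. At an unadjusted p under 0.05 there were 6 of the 12, and DESeq2 called 2, Smc1b and Pds5a. The block added Smc3, lower (-0.34, adjusted p = 0.0496), and Mau2, of the cohesin loader, higher (0.46, adjusted p = 0.00396). Gatad2a and Mau2 lie on chromosome 8, Pds5a on 5 and H3f3a on 1, among the autosomes left out of the balanced set. The part of the chromosome in these differences was not tested.

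The members were set beside 24 other X-linked genes of chromatin and transcription regulators. In total counts Bcor, a Polycomb-associated corepressor gene, was lower in iXist-ChrX-Dom (-0.49, SE 0.11, adjusted p = 0.0440), and with the block 4 of the 24 were, namely Bcor, Bcorl1, Zmym3 and Tspyl2. Their ratios in iXist-ChrX-Dom ran from 0.0132 ± 0.0263 (Smarca1) to 0.437 ± 0.00500 (Kdm6a), so Suv39h1 was above all 17 of them in that table. In iXist-ChrX-Cast they ran from 0.0215 ± 0.0372 (Taf9b) to 0.539 ± 0.0401 (Taf1), and Suv39h1 was below Taf1 there. Between the lines the ratio was called for 1 of 5 members and for 33.2% of the 235 shared genes. It was called for 6 of these 17 regulators, 4 higher in iXist-ChrX-Dom and 2 lower. The named ones with the smallest adjusted p were Taf1 (-1.92, adjusted p = 0.000239), Zfx, a zinc finger transcription factor gene (2.12, adjusted p = 0.000239), and Nono, an RNA-binding protein gene (1.94, adjusted p = 0.00335).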

How the data were processed

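ChrRNA-seq libraries were analysed from 4 iXist-ChrX-Dom and 3 iXist-ChrX-Cast samples, grouped by the line in the labels. Per the labels and the study's methods, the authors removed rRNA reads with Bowtie2 2.3.2, aligned to N-masked mm10 with STAR 2.4.2a, split alleles with SNPsplit, and deposited raw fragment counts per gene (featureCounts 1.5.2, stranded, whole transcript spans), total and per allele. The authors also deposited allelic ratios as a fraction, Xi/(Xi+Xa), for X-linked genes that passed a minimum on allelic fragments and a lower and an upper limit on the uninduced ratio. All 2181 ratios equalled those computed from the counts.

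Total and same-allele counts were compared with edgeR 4.0.16 (R 4.3.3, filterByExpr, TMM, quasi-likelihood F test), and ratios with limma 3.58.1 on log2((ratio + 0.01)/(1 - ratio + 0.01)), two-sided, with Benjamini-Hochberg adjustment over all genes fitted and a threshold of 0.05. Same-allele fits used the scaling of the total counts. CPM used TMM library sizes. Tested on simulated data, 81.5% of 200 changed genes among 15186 were found by edgeR (8.94% of calls false) and 80% of 40 changed ratios among 235 by limma (0% false). Whether differences between the lines as small as those of the members would be found at these rates was not tested. DESeq2 1.42.0 served as an alternative, and Wilson intervals came from scipy 1.17.1 (Python 3.11.15).

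Members, gene lists and tests were chosen with earlier results of these data known. Named genes were the members, at most the 3 called genes of each list with the smallest adjusted p, extremes of ratio among the other X-linked regulators, paralogs and opposing enzymes, the 2 nearest table genes on each side and the 2 of most similar ratios, and genes called with the block or DESeq2 alone were named after their values were seen. Not every item these rules give is reported here. Same-numbered replicates deviated together in total counts (correlations of 0.329, 0.275 and 0.466) and not in log-odds (-0.123, -0.0956 and -0.111). The replicate number was used as a block on this ground. Libraries of different number were not correlated, so pairing by number cannot be told apart from a deviation that replicates 1 and 2 share against the later ones. In the block iXist-ChrX-Dom replicate 4 is alone and adds nothing to the contrast. No pair of replicates agreed within sampling noise (chi-square per gene 6.51 to 39.9). In iXist-ChrX-Dom it was 14.8 for replicates 1 and 2 and 6.51 for 3 and 4, against 23.6 to 39.9 between these sets. In iXist-ChrX-Cast it was 9.71 for replicates 1 and 2, against 39.7 and 36.1 with replicate 3. Alternatives were other scalings, filters, offsets and tools, a block, a sample-set covariate, correction by the autosomal Cast share, and leaving out libraries.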

Additional observations from a re-analysis of the deposited data

Results flagged for a closer look

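The Phf6 ratio of iXist-ChrX-Dom replicate 4, 0.0923, stood apart from the other three libraries of its line (0.0641 to 0.0663). Among the 13 groups of ratios and levels screened, chance alone gives about 1 in 20 such gaps, and groups of 3 libraries were not screened. Its interval from counting (0.0705 to 0.120) overlapped those of the other libraries.

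The Xi share differed between the lines for Ogt by a log-odds of -0.60 (iXist-ChrX-Dom minus iXist-ChrX-Cast, limma, adjusted p = 0.0182). Among the other X-linked regulators it was lower in iXist-ChrX-Dom for Taf1 (-1.92) and Zmym3 (-0.57). It was higher for Elf4 (3.00), Bcorl1 (2.13), Zfx (2.12) and Nono (1.94). Elf4 and Bcorl1 are weakly expressed, at 10.3 and 6.64 CPM in iXist-ChrX-Dom. This limma test called 33.2% of the 235 shared genes. The call on Ogt was lost in several settings, among them the replicate block (adjusted p = 0.120) and without iXist-ChrX-Cast replicate 1 (adjusted p = 0.0692).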

How the results depend on the processing

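The number of genes called in total counts, 443, was 1794 with the replicate block, 2398 with the sample set as a covariate, 1685 with replicates 1 and 2 alone, 58 without iXist-ChrX-Dom replicates 3 and 4, 1098 with DESeq2, and 18 to 1206 with 1 library left out. Members called in total counts, 0, were 1 with the covariate and 2 with replicates 1 and 2 alone, and remained 0 in the block and with any 1 library left out. Members called in the ratio between the lines, 1, were 2 with an offset of 0.05, with untransformed ratios and with the autosomal correction, 3 with edgeR on allelic counts, and 0 with the replicate block (Ogt -0.60, adjusted p = 0.120), with replicates 1 and 2 alone and without iXist-ChrX-Dom replicates 3 and 4 (adjusted p = 0.0710), and 0 to 2 with 1 library left out. The block changed no other call on a member. The count of genes called on the ratio, 78, ranged from 54 to 106. Genes called for the Dom allele, 613, were 1211 with the block, 1074 with replicates 1 and 2 alone and 451 to 997 with 1 library left out.

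Signs turned for values near 0: Hcfc1 in total counts became -0.0099 with scaling over autosomes other than 1, 5, 8, 12 and 14 and -0.0046 with replicates 1 and 2 alone, and with 1 library left out Hcfc1 ranged from -0.068 to 0.069, Phf6 from -0.073 to 0.12, Phf8 from -0.064 to 0.014 and the Cast allele of Suv39h1 from -0.23 to 0.073. None of these was called. The cause of these changes was not tested. The 4 members called higher on Xa remained so under all alternatives run. Depth limits Suv39h1, with 107 to 170 allelic fragments, and Phf6 on Xi, with 18 to 57. Fold changes of the same allele compare clones as well as chromosomes.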
